A study of Mus musculus with 4 samples.

Results

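The solute carriers of the amino acid, sugar, monocarboxylate, organic ion, peptide and fatty acid families were compared between sorted cell populations of the mouse colon. Members were the genes whose array name fell in families Slc1, Slc2, Slc3, Slc5, Slc6, Slc7, Slc15, Slc16, Slc22, Slc27, Slc36, Slc38 and Slc43. The rule gave 130 genes of the 28307 named on the array, and 78 of them had enough signal to be among the 14787 genes tested. One of the 130, Slc7a6os, carries such a name without being a transporter. Members were then sorted into substrate classes by what each carrier is known to move.

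The cells came from colonic crypts of adult Lgr5_EGFP-ires-CreERT2 knockin mice, in which the Lgr5 locus drives GFP and an inducible Cre recombinase. One population was labelled Lgr5-GFP and sorted by GFP, and the other was labelled CD24hi and sorted with an antibody to CD24, which the design text uses to obtain a subset of goblet cells. RNA of both populations shared each of 4 arrays, in the form of 2 replicates (n = 2), each a first array and a dye swap. No treatment is named. Whether the replicates were separate mice is not stated in the labels, so the p-values cover the spread between these arrays alone, and that spread may be technical. Replicates and slides coincide, and their effects cannot be told apart.

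The genes used for the sort ran against the labels. Lgr5 had log2 ratios, Lgr5-GFP label over CD24hi label, of -3.61, -2.90 and -3.51 on the 3 arrays with a value, so the RNA labelled Lgr5-GFP held 10.6-fold less of it (limma adjusted p = 5.92e-04). Cd24a, which encodes CD24, was 4.35-fold higher there (adjusted p = 7.45e-04), and the goblet mucin gene Muc2 was 13.5-fold higher (adjusted p = 6.12e-04). All directions below therefore refer to "the RNA labelled Lgr5-GFP" and "the RNA labelled CD24hi", not to stem or goblet cells. Whether populations or dyes were exchanged in the labels was not tested; an exchange would turn every sign and swap every count of higher and lower genes below. Of the marker lists, 8 of 8 stem and cycling genes were called lower in the RNA labelled Lgr5-GFP, while 5 of 8 goblet, 6 of 7 enteroendocrine, 5 of 5 tuft and 3 of 7 absorptive genes were higher and none of those 4 lists had a gene called lower; in the same fit, 21.7% of all genes were called higher and 25.6% lower. None of the 3 leukocyte and 2 stromal or endothelial genes tested was called, and their medians were -0.16 and 0.13. The goblet gene Tff3 (-0.95) and the absorptive genes Slc26a3 (-0.49) and Car4 (-0.13) ran against the called genes of their lists without being called. Some or all genes of the stem, goblet, enteroendocrine, tuft and absorptive lists thus differed between the populations. The part of these cell types in the transporter ratios was not tested. In such sorted bulk RNA, fewer cells of a type and less RNA per cell cannot be told apart.

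Values are given on the log2 scale in the order first array and dye swap of replicate 1, then first array and dye swap of replicate 2. Where 3 values stand, the spot on the dye swap of replicate 1 was marked as an outlier and left out. That array stood apart, with 75.3% of its gene spots marked, against at most 0.399% on each of the other arrays. It held a value for 27 of the 78 tested members, and its ratios were small: over the 17 called members measured there, the median absolute ratio was 0.37 on this swap and 1.27 on its first array. All 17 were smaller on the swap, and Slc16a1 and Slc22a12 had the opposite sign there. A gene was called when limma, fitted over all 14787 genes, gave a Benjamini-Hochberg adjusted p under 0.05, and every adjusted p below is from that fit. With 2 replicates, each SD is itself imprecise. For the 51 tested members without a value on the dye swap of replicate 1, the first array alone stood for that replicate, so dyes were not balanced in it. For the other 27, replicate 1 was a mean with the small ratios of the swap. Ratios and SDs are therefore not fully comparable between these members.

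Solute carriers move nutrients, ions and waste products across membranes. Some run on the sodium gradient kept by the sodium pump, as Slc5 and Slc6 carriers do, some let a substrate pass down its own gradient, as most Slc2 sugar carriers do, and some swap one substrate for another, as the Slc7 light chains do. The colon takes up short-chain fatty acids made by bacteria, largely through monocarboxylate carriers, and receives glucose and glutamine from the blood side. Several carriers reach the membrane only with a partner protein, such as the Slc3a2 heavy chain for Slc7 carriers or basigin for Slc16 carriers.

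Sequence next to the start site was available for 95 of the 130 members, as 120 RefSeq promoters (GRCm38.p6, 250 bases before to 50 after the start). The 5 windows shown are examples that hold, on either strand, the letters of 2 motifs tied to nutrient control: TGATGNAA, bound by Atf4 complexes, and CACGTG, the core of the E-box of the Myc and Tfe3 kind. Matches are in capitals. Slc1a4 and Slc7a7 are amino acid carriers called higher in the RNA labelled Lgr5-GFP. Slc7a11 is the cystine carrier known for such elements, which was too dim to be tested. Slc43a1 and Slc16a1 hold CACGTG and were called in opposite directions.
Slc1a4, chr11:20332710-20332809, minus strand: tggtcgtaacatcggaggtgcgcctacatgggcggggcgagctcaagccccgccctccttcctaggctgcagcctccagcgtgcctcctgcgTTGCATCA
Slc7a7, chr14:54417938-54418037, minus strand: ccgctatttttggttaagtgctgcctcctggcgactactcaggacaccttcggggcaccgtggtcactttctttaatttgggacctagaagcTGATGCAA
Slc7a11, chr3:50443614-50443713, minus strand: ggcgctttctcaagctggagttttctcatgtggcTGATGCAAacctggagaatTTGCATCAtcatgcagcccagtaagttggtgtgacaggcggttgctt
Slc43a1, chr2:84840210-84840309, plus strand: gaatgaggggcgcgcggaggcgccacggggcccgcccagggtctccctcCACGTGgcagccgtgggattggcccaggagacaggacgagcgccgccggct
Slc16a1, chr3:104638415-104638514, plus strand: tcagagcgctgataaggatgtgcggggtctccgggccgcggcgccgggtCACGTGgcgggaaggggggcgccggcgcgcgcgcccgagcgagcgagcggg

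Counted from the start site, the match shown began at -4 in Slc1a4 and at -1 in Slc7a7. The same Slc7a7 promoter held a further match, TGATGAAA, at -141, outside the window shown. Slc7a11 held a pair of matches in opposite orientation at -66 and -47. TGATGNAA was found in 5 of 120 member promoters (4.17%), beside 3.97% of all 32851 promoters in the table. The promoters with it belonged to 4 members, of which Slc1a4 and Slc7a7 were called higher and Slc7a11 and Slc15a5 were not tested. Its subset TTGCATCA, which reads TGATGCAA on the other strand, was in 3.33% of member promoters and 0.895% of all, and 2 of the 4 promoters share a single site of Slc7a7. CACGTG was in 12.5% of member promoters and 7.15% of all. Its 15 members included 4 called higher, 2 called lower, 5 not called and 4 not tested, so the letters were found on both sides. A search for 8 further motifs gave GCCNNNGGC in 22.5% of member promoters and 16.6% of all, TTTATNG in 5.83% and 10.9%, TCACGTGA, which contains CACGTG, in 0.833% and 0.974%, and CAAAGTCCA in 0.833% and 0.475%. TGATGNAAT, which contains TGATGNAA, the cAMP response element TGACGTCA, and a short and a long form of the Hnf1 motif were in no member promoter, beside 0.965%, 1.79%, 0.399% and 0.00913% of all. The motifs were chosen with results known, and a match describes letters, not binding.

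Across the families, 46 of the 78 tested members were called (59.0%), beside 47.3% of all genes tested. Of these, 26 members were higher with the Lgr5-GFP label (33.3%, beside 21.7% of all genes), and 20 were lower (25.6%, beside 25.6% of all genes). The lower share thus equalled the background, and the higher share was above it, a difference that was not tested. With arrays centred on their medians alone, 23 members were higher and 26 lower, beside 2221 and 5434 of all genes. At least 2-fold in both replicates, 10 members were higher (12.8%, beside 5.90%) and 7 were lower (8.97%, beside 6.06%). The median log2 ratio was 0.0039 over members and -0.069 over all genes. Members with signal in both populations made up most of the calls: 62 of the 78 passed the signal filter in both, and 24 of those were higher and 15 lower. Through the RNA labelled CD24hi only, 14 members passed and 5 were lower, and through the RNA labelled Lgr5-GFP only, Slc38a5 and Slc36a4 passed and both were higher. Replicate ratios over the 78 members correlated at r = 0.935 across genes, which are not independent replicates, beside 0.909 over all genes.

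**Figure D1:**
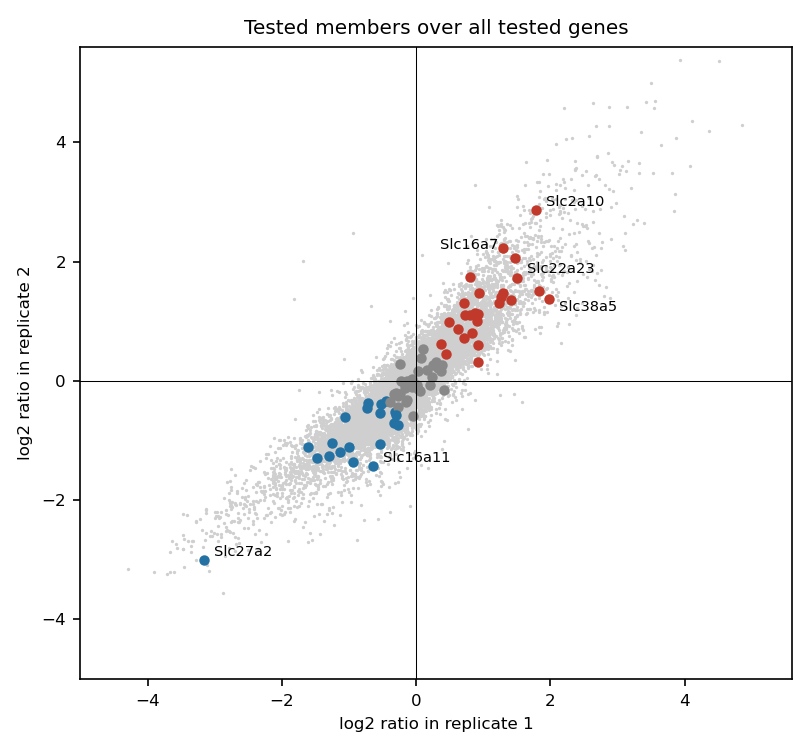
Mean log2 ratio (Lgr5-GFP label over CD24hi label) of replicate 1 against replicate 2, for the 78 tested members over all 14787 tested genes in light grey. Red points are the 26 members called higher, blue points the 20 called lower and dark grey points those not called; Slc2a10 lies at the upper right and Slc27a2 at the lower left, at a mean of -3.08.

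The split of directions differed by substrate class, as a description with no test between classes. Over all genes tested, 21.7% were called higher and 25.6% lower, and each class and family count here and below stands beside these shares. Sugar and polyol carriers had 5 of 10 tested members higher and 0 lower, cationic amino acid carriers 2 of 3 higher and 0 lower, and neutral amino acid carriers 8 of 18 higher and 3 lower. With median centring alone, Slc5a9 of the sugar carriers (-0.54) and Slc7a1 of the cationic carriers (-0.56) were called lower, as was Slc5a9 with processed signals (-0.67), where Slc5a4b was too (-0.61). Acidic amino acid, organic cation and organic anion carriers each had 0 of 4 higher and 2 lower, too few genes to set them apart from the shares over all genes. By family, Slc2 had 5 of 6 higher and 0 lower, Slc38 had 3 of 6 higher and 0 lower, and Slc16 had 2 of 12 higher and 7 lower. Among those 7, Slc16a5, Slc16a10 and Slc16a12 passed the signal filter through the RNA labelled CD24hi only, so the filter favoured lower ratios among them. Within Slc38, Slc38a1 was called lower under 4 alternatives, among them median centring (-0.53), and Slc38a2 with the mean of all kept probes (-0.44). Among the classes of settled substrate with at least 5 tested members, the medians were 0.28 for monocarboxylates, 0.27 for sugars and polyols, 0.21 for neutral amino acids and 0.15 for neurotransmitters and osmolytes.

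**Figure D2:**
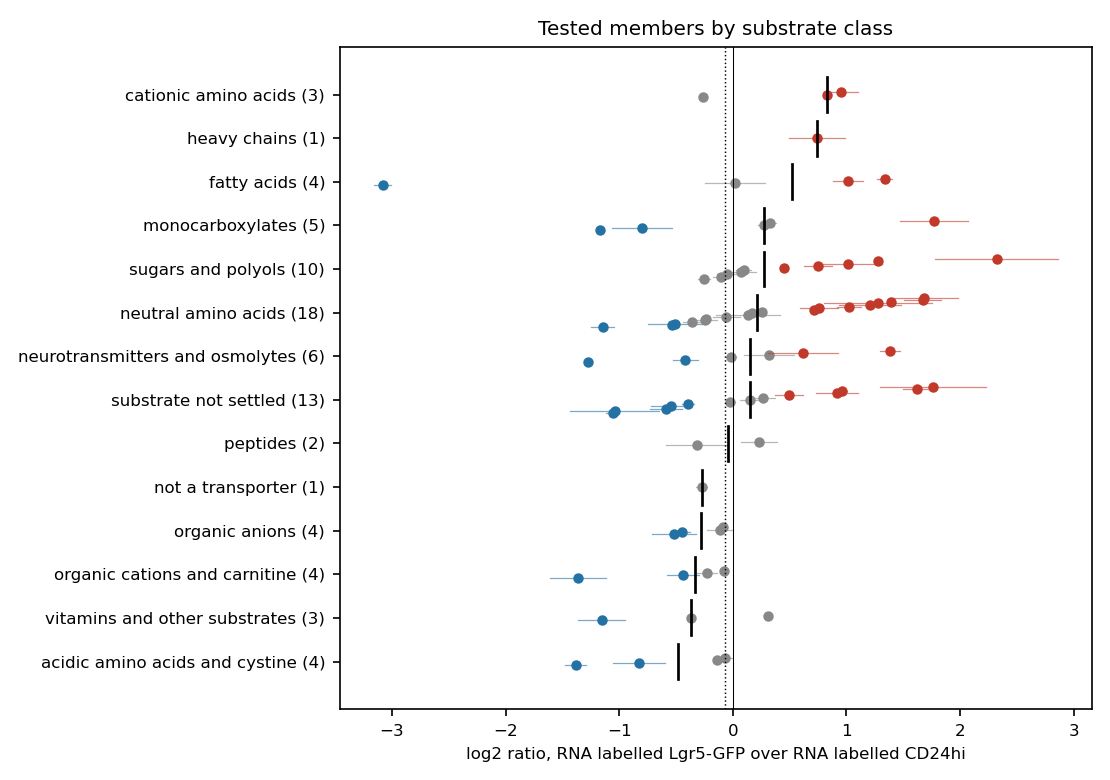
Mean log2 ratio (Lgr5-GFP label over CD24hi label, n = 2) of each of the tested members by substrate class, with a thin line from one replicate to the other and a black bar at the class median; the dotted line marks the median of all genes, -0.069. Red points were called higher, blue points lower and grey points were not called; no point of the sugar and polyol class is blue, and no point of the acidic amino acid class is red.

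Among sugar carriers, 5 of 10 tested members were higher with the Lgr5-GFP label, and all 5 belonged to the Slc2 family. The largest ratio was that of Slc2a10, a glucose and dehydroascorbate carrier of inner membranes (probe at chr2:165344713-165344772, mm9), with values of 2.997, 0.57, 2.86 and 2.86 and a mean of 2.32 ± 0.76 (SD, n = 2, adjusted p = 0.00189), or 4.996-fold. The dye swap of replicate 1 lay far below the other arrays, which were close together, but all 4 had the same sign. Without that dye swap the mean was 2.93, without the first array of replicate 1 it was 1.71, and the call held both times. Slc2a8, an intracellular glucose carrier, had values of 1.24, 1.32 and 1.31, with a mean of 1.28 ± 0.049 (SD, n = 2, adjusted p = 0.00126). Slc2a1, the basal glucose carrier of most cells, had values of 1.05, 0.37, 0.94 and 1.69, with a mean of 1.01 ± 0.43 (SD, n = 2, adjusted p = 0.00682), so that the arrays spread more widely than for Slc2a8.

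The fructose carrier Slc2a5 had values of 0.90, 0.36, 0.86 and 0.89, with a mean of 0.75 ± 0.17 (SD, n = 2, adjusted p = 0.007). Slc2a13, which moves myo-inositol with protons, had the smallest called ratio of the class, with a mean of 0.45 ± 0.0056 (SD, n = 2, adjusted p = 0.0279). Slc2a6, a lysosomal hexose carrier, was not called at 0.095 ± 0.096. The sodium-driven carriers were not called: Slc5a1, the main glucose carrier of the small intestine, had values of 0.25, -0.18, -0.011 and -0.27, which lie on both sides of 0, with a mean of -0.055 ± 0.12 (SD, n = 2, adjusted p = 0.756). Slc5a9, a mannose and fructose carrier, had values of -0.30, -0.34 and -0.059 and a mean of -0.25 ± 0.073 (SD, n = 2, adjusted p = 0.147), Slc5a10 a mean of 0.070 ± 0.18 and Slc5a4b one of -0.10 ± 0.10. The remaining 9 members of the class, among them Slc2a2, Slc2a3 and the insulin-responsive Slc2a4, were too dim to be tested. The call of Slc2a1 was lost without the first array of replicate 1 (0.84), as was that of Slc2a5 (0.62), and the call of Slc2a13 was lost under 7 alternatives, among them median centring (0.16) and leaving out the dye swap of replicate 2 (0.33).

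Neutral amino acid carriers made up the largest class, with 18 of 31 members tested, 8 higher and 3 lower. The sodium-coupled Slc38 family supplied the largest ratios. Slc38a5, a glutamine and glycine carrier, had values of 1.98, 1.62 and 1.13, with a mean of 1.68 ± 0.43 (SD, n = 2, adjusted p = 0.00162). Its signal cleared background on all 3 arrays for the RNA labelled Lgr5-GFP and on 1 of 3 for the RNA labelled CD24hi, so it entered the test through its high side. Processed signals of the scanner software, median-centred and without normexp, gave it a larger ratio of 3.76. Slc38a9, the lysosomal arginine sensor of the mTORC1 pathway, had values of 1.83, 1.40 and 1.61, with a mean of 1.67 ± 0.23 (SD, n = 2, adjusted p = 9.41e-04). Slc38a10, a broad carrier less well understood, had values of 1.36, 0.25, 1.80 and 1.70, with a mean of 1.28 ± 0.67 (SD, n = 2, adjusted p = 0.00825) and again its lowest value on the dye swap of replicate 1. Slc38a1 and Slc38a2, the classical system A glutamine carriers, were not called: Slc38a2 had values of 0.080, -0.37, -0.24 and -0.46 and a mean of -0.25 ± 0.15 (adjusted p = 0.169), and Slc38a1 a mean of -0.36 ± 0.12 (adjusted p = 0.0641). A further 4 kept probes of Slc38a1 had ratios between 0.022 and 0.34, opposite in sign to the brightest probe.

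The large neutral amino acid exchangers were called in opposite directions. Slc7a5, the carrier of leucine and other large neutral amino acids in growing cells (probe at chr8:124405142-124405201, mm9), had values of 0.91, 1.09 and 1.17, with a mean of 1.02 ± 0.15 (SD, n = 2, adjusted p = 0.00264). Slc7a8, its close relative on the blood side of transporting epithelia (probe at chr14:55341137-55341196, mm9), had values of -1.25, -1.03 and -1.06, with a mean of -1.15 ± 0.14 (SD, n = 2, adjusted p = 0.0019). No array changed the sign of either, and the 3 values of one lay above the 3 values of the other. Slc43a1, a leucine carrier that needs no sodium and whose CACGTG-bearing promoter is shown above, had values of 1.42, 1.43 and 1.29, with a mean of 1.39 ± 0.044 (SD, n = 2, adjusted p = 0.00103). Slc3a2, the heavy chain that brings Slc7a5, Slc7a6, Slc7a7 and Slc7a8 to the membrane, had values of 0.94, 0.051, 1.03 and 0.94, with a mean of 0.74 ± 0.34 (SD, n = 2, adjusted p = 0.0138). The swap of replicate 1 was near 0 for Slc3a2, its call was lost without the first array of replicate 1 (0.52), and the heavy chain Slc3a1 was not tested.

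Slc1a4, an exchanger of alanine, serine and cysteine whose match to TGATGNAA is shown above, had values of 1.34, 0.54, 1.60 and 1.37, with a mean of 1.21 ± 0.38 (SD, n = 2, adjusted p = 0.0034). Its relative Slc1a5, the main glutamine exchanger of many growing cells, was bright in both populations and not called, with values of 0.71, -0.22, 0.32 and 0.22 and a mean of 0.26 ± 0.014 (SD, n = 2, adjusted p = 0.134). The Slc36 carriers Slc36a1 and Slc36a4 were higher, at 0.76 ± 0.23 (SD, n = 2, adjusted p = 0.00825) and 0.72 ± 0.0009 (SD, n = 2, adjusted p = 0.00613). Processed signals gave 2.87 for the dim Slc36a4, and Slc36a3 was not called at 0.17 ± 0.018. The other lower carriers were Slc16a10, which moves aromatic amino acids, at -0.54 ± 0.0083 (SD, n = 2, adjusted p = 0.0158), and the proline carrier Slc6a7 at -0.51 ± 0.33 (SD, n = 2, adjusted p = 0.0432). The signal of Slc16a10 cleared background on 2 of 3 arrays for the RNA labelled Lgr5-GFP. Processed signals gave -1.79 for Slc16a10 and -1.17 for Slc6a7. The call of Slc16a10 was lost under 3 alternatives: normexp fitted on all spots (-0.40), marked spots kept (-0.42) and no filter on dim probes. In the last of these, its brightest probe gave -0.20. The call of Slc6a7 was lost under 6 alternatives, among them leaving out the dye swap of replicate 2 (-0.53), and its second kept probe gave -0.11. Slc6a14, a broad carrier of neutral and cationic amino acids, had a mean of 0.13 ± 0.40, Slc38a7 one of -0.058 ± 0.17 and Slc6a20a one of -0.23 ± 0.012, none of them called. The signal of Slc6a20a cleared background on no array for the RNA labelled Lgr5-GFP. Taking that dim side per array as no less than the lowest signal well above background, Slc6a20a was only 1.07-fold lower in the main processing. It was called lower with processed signals (-1.95) and in the deposited series table (-1.70). The 13 members of the class that were too dim include Slc6a19, the main neutral amino acid carrier of the small intestinal brush border.

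**Figure D3:**
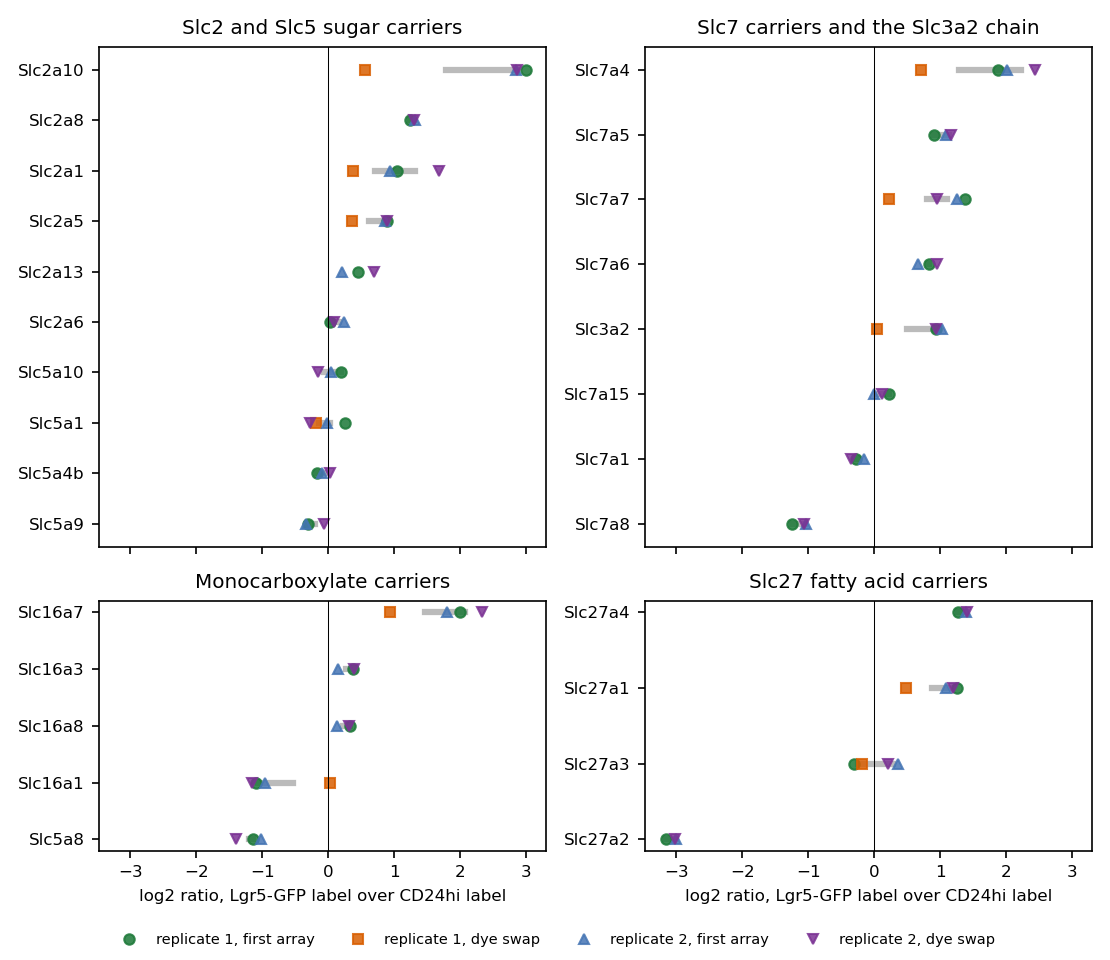
Log2 ratio (Lgr5-GFP label over CD24hi label) on each array for members named in the text. Each symbol is 1 array; for every called member measured on the dye swap of replicate 1, that symbol lies nearer to 0 than the first array of replicate 1, as for Slc2a10 at 0.57 against 2.997. Grey bars run from the ratio of one replicate to that of the other.

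Of the cationic amino acid carriers, 2 of 3 tested were higher and both need the Slc3a2 heavy chain. Slc7a7, which releases arginine and lysine on the blood side of epithelia, had values of 1.37, 0.22, 1.25 and 0.96, with a mean of 0.95 ± 0.22 (SD, n = 2, adjusted p = 0.00385). Slc7a6, of the same exchange type, had values of 0.84, 0.67 and 0.95, with a mean of 0.82 ± 0.018 (SD, n = 2, adjusted p = 0.00404). Slc7a1, an arginine carrier that needs no heavy chain, had values of -0.27, -0.15 and -0.35, with a mean of -0.26 ± 0.015 (SD, n = 2, adjusted p = 0.133), and was not called. The call of Slc7a7 was lost without the first array of replicate 1 (0.66).

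Of the acidic amino acid carriers, 0 of 4 tested were higher and 2 lower. Slc1a2, Slc1a3 and Slc1a6 passed the signal filter through the RNA labelled CD24hi only, so the filter favoured lower ratios in this class, and Slc1a1 passed in both populations. Slc1a1, the glutamate carrier of epithelia and neurons, had values of -1.47, -1.23 and -1.36, with a mean of -1.38 ± 0.13 (SD, n = 2, adjusted p = 0.00114). Slc1a3, a glutamate and aspartate carrier best known from glia, had values of -1.06, -0.61 and -0.58, with a mean of -0.83 ± 0.32 (SD, n = 2, adjusted p = 0.00889), and its signal in the RNA labelled Lgr5-GFP cleared background on 1 of 3 arrays. The glial glutamate carrier Slc1a2 had values of -0.16, -0.082 and -0.17 and a mean of -0.14 ± 0.026 (SD, n = 2, adjusted p = 0.376), and Slc1a6 had values of -0.13, -0.040 and 0.027 and a mean of -0.070 ± 0.090 (SD, n = 2, adjusted p = 0.677), neither of them called. The second kept probe of Slc1a2 gave -0.47 and was called lower in a fit over all kept probes. Processed signals gave larger ratios for Slc1a1 (-2.11) and Slc1a3 (-2.34). Slc7a11, the cystine and glutamate exchanger, was not tested.

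Carriers of neurotransmitters and osmolytes split evenly, with 2 of 6 tested higher and 2 lower, beside 21.7% and 25.6% of all genes. Slc6a9, a glycine carrier, had values of 1.90, 0.69, 1.52 and 1.43, with a mean of 1.39 ± 0.13 (SD, n = 2, adjusted p = 0.00114). Slc6a8, the creatine carrier, had values of 0.93, 0.22 and 0.41, with a mean of 0.62 ± 0.44 (SD, n = 2, adjusted p = 0.0352), and its array from replicate 1 stood well above those of replicate 2. Slc6a4, the serotonin carrier that clears serotonin released in the gut, had values of -1.30, -1.33 and -1.19, with a mean of -1.28 ± 0.029 (SD, n = 2, adjusted p = 0.00124). Its signal in the RNA labelled Lgr5-GFP cleared background on 1 of 3 arrays, and its mean was -2.74 with processed signals. Slc6a12, the betaine and GABA carrier, had values of -0.31, -0.63 and -0.42, with a mean of -0.42 ± 0.15 (SD, n = 2, adjusted p = 0.0445). The taurine carrier Slc6a6, bright in both populations, had values of 0.61, -0.40, 0.66 and 0.41 and a mean of 0.32 ± 0.31 (SD, n = 2, adjusted p = 0.14). Its second kept probe gave 0.55 and was called higher in a fit over all kept probes. The GABA carrier Slc6a13 had values of -0.058, -0.054 and 0.11 and a mean of -0.014 ± 0.062 (SD, n = 2, adjusted p = 0.94). The call of Slc6a8 was lost under 8 alternatives, among them median centring (0.36) and leaving out the dye swap of replicate 2 (0.57). That of Slc6a12 was lost under 5 alternatives, among them leaving out the dye swap (-0.47) or the first array (-0.36) of replicate 2.

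Monocarboxylate carriers, which move lactate, pyruvate, ketone bodies and short-chain fatty acids, held calls in both directions, 1 higher and 2 lower of 5 tested. Slc16a7, a high-affinity pyruvate and lactate carrier (probe at chr10:124664784-124664843, mm9), had values of 2.003, 0.94, 1.81 and 2.33, with a mean of 1.77 ± 0.42 (SD, n = 2, adjusted p = 0.00138), or 3.41-fold. Slc5a8, a sodium-coupled carrier of butyrate and lactate in the colon (probe at chr10:88391888-88391947, mm9), had values of -1.13, -1.01 and -1.39, with a mean of -1.17 ± 0.049 (SD, n = 2, adjusted p = 0.00159). Slc16a1, the proton-coupled carrier of butyrate and lactate (probe at chr3:104460941-104461000, mm9), was bright in both populations, with values of -1.10, 0.031, -0.96 and -1.16 and a mean of -0.80 ± 0.37 (SD, n = 2, adjusted p = 0.0122). Its arrays lay together below 0 except the dye swap of replicate 1, and the call was lost without the first array of replicate 1 (-0.51). Its other kept probes gave -0.79 and -0.12. The lactate exporter Slc16a3 had values of 0.38, 0.15 and 0.40 and a mean of 0.33 ± 0.075 (SD, n = 2, adjusted p = 0.0779), and Slc16a8 had values of 0.33, 0.13 and 0.31 and a mean of 0.28 ± 0.076 (SD, n = 2, adjusted p = 0.12), neither of them called.

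Fatty acid carriers of the Slc27 family, which also join fatty acids to coenzyme A, held the member of largest ratio. Slc27a2, a very-long-chain acyl-CoA synthetase of peroxisomes (probe at chr2:126413550-126413609, mm9), had values of -3.16, -2.995 and -3.02, with a mean of -3.08 ± 0.11 (SD, n = 2, adjusted p = 5.92e-04), or 8.47-fold lower than in the RNA labelled CD24hi. Its arrays agreed closely, and the mean ranged from -4.52 to -2.37 over the alternatives in processing. Slc27a4, the main family member of the intestine, had values of 1.27, 1.39 and 1.41, with a mean of 1.34 ± 0.092 (SD, n = 2, adjusted p = 0.00118), or 1.96 in the authors' deposited series table. Slc27a1, known from muscle and fat, had values of 1.27, 0.49, 1.09 and 1.1996, with a mean of 1.01 ± 0.19 (SD, n = 2, adjusted p = 0.00298), and its call was lost without the first array of replicate 1 (0.82). Slc27a3 had values of -0.31, -0.18, 0.36 and 0.21 that lay on both sides of 0 and a mean of 0.021 ± 0.37 (SD, n = 2, adjusted p = 0.929). Members of this family were thus called in both directions by more than 2-fold.

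None of the organic cation and organic anion carriers tested was higher, and 2 of 4 in each class were lower. Slc22a21, a carnitine carrier, had values of -0.30, -0.50 and -0.66, with a mean of -0.44 ± 0.20 (SD, n = 2, adjusted p = 0.0425), and Slc22a5, the main carnitine carrier, was not called, with values of -0.14, -0.36 and -0.27 and a mean of -0.23 ± 0.13 (SD, n = 2, adjusted p = 0.196). Slc22a16, a carnitine carrier of testis, had values of -0.085, -0.11 and -0.023 and a mean of -0.075 ± 0.015 (SD, n = 2, adjusted p = 0.649). Among the anion carriers, Slc22a12, the urate carrier of kidney, had values of -0.75, 0.097, -0.86 and -0.56, with a mean of -0.52 ± 0.27 (SD, n = 2, adjusted p = 0.0326) and the opposite sign on the dye swap of replicate 1. Slc22a20 had values of -0.52, -0.35 and -0.40, with a mean of -0.45 ± 0.10 (SD, n = 2, adjusted p = 0.031), but its brightest probe without the signal filter gave 0.079, with the sign turned. Slc22a8, an anion carrier of kidney, had values of -0.060, -0.13 and -0.080 and a mean of -0.083 ± 0.033 (SD, n = 2, adjusted p = 0.611), and Slc22a13 had values of -0.23, -0.029 and 0.027 and a mean of -0.12 ± 0.16 (SD, n = 2, adjusted p = 0.506), neither of them called. The call of Slc22a21 was lost under 5 alternatives, among them leaving out the dye swap of replicate 2 (-0.40). That of Slc22a12 was lost without the first array of replicate 1 (-0.31).

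Carriers of vitamins, nucleobases and peptides held a single call. Slc5a6, which takes up biotin and pantothenate, had values of -0.95, -1.54 and -1.19, with a mean of -1.16 ± 0.30 (SD, n = 2, adjusted p = 0.00285). Slc43a3, a purine nucleobase carrier, had values of -0.38, -0.36 and -0.37 and a mean of -0.37 ± 0.015 (SD, n = 2, adjusted p = 0.0511), just above the threshold for a call. Slc43a3 was called lower under 8 of the alternatives in processing. The peptide carriers Slc15a4 and Slc15a2 had values of 0.070, 0.35 and 0.42 and of -0.39, 0.31, -0.65 and -0.53, with means of 0.23 ± 0.22 (SD, n = 2, adjusted p = 0.228) and -0.32 ± 0.39 (SD, n = 2, adjusted p = 0.174). Neither was called, and Slc15a1, the main peptide carrier of the small intestine, had no array well above background.

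Carriers with no settled main substrate were called in both directions, 5 higher and 5 lower of 13 tested. Slc7a4, a relative of the cationic carriers with no shown amino acid transport, had values of 1.88, 0.71, 2.02 and 2.44, with a mean of 1.76 ± 0.66 (SD, n = 2, adjusted p = 0.00297), or 3.39-fold. Slc22a23, an orphan of the organic ion family, had values of 1.79, 1.21, 1.62 and 1.85, with a mean of 1.62 ± 0.17 (SD, n = 2, adjusted p = 9.01e-04), and its second kept probe gave 1.77. Both were measured on all 4 arrays, and every array of each lay above 0. Slc22a15 had a mean of 0.96 ± 0.067 (SD, n = 2, adjusted p = 0.00272), but its second kept probe gave -0.078, and the deposited series table gave 1.57. Slc16a6 and Slc22a18 were also higher, at 0.92 ± 0.26 (SD, n = 2, adjusted p = 0.00489) and 0.49 ± 0.18 (SD, n = 2, adjusted p = 0.0277). Both lost the call without the first array of replicate 1 (0.74 and 0.35). Slc22a18 lost it under 7 alternatives in all, among them the mean of all kept probes (0.33), and its second kept probe gave 0.23.

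The lower carriers of unsettled substrate all belonged to Slc16. Slc16a12, a creatine carrier candidate known from the lens, had values of -1.0002, -0.87 and -1.36, with a mean of -1.06 ± 0.081 (SD, n = 2, adjusted p = 0.00212). No array of the RNA labelled Lgr5-GFP had it well above background. In the main processing it was at least 2.06-fold lower there, taking the dim side per array as the higher of its own signal and the lowest signal well above background. This bound does not cover other processing: over the alternatives the mean of Slc16a12 ranged from -3.81, with processed signals, to -0.74. Slc16a11, a pyruvate carrier candidate, had values of -1.12, -0.18, -1.54 and -1.33, with a mean of -1.04 ± 0.55 (SD, n = 2, adjusted p = 0.0105), and the call was lost without the first array of replicate 1 (-0.81). Slc16a13, Slc16a9 and Slc16a5 had means of -0.59 ± 0.20 (SD, n = 2, adjusted p = 0.017), -0.54 ± 0.25 (SD, n = 2, adjusted p = 0.0262) and -0.39 ± 0.075 (SD, n = 2, adjusted p = 0.0457). Slc16a5 cleared background on 2 of 3 arrays for the RNA labelled Lgr5-GFP and entered the test through its high side, in the RNA labelled CD24hi. The calls of Slc16a13 (-0.47) and Slc16a5 (-0.38) were lost without the dye swap of replicate 2, and those of Slc16a9 (-0.45) and Slc16a5 (-0.40) without the first array of replicate 2. Processed signals gave -1.20 for Slc16a9 and -1.03 for Slc16a5. Slc22a17, with values of 0.43, 0.30, -0.0020 and 0.32 and a mean of 0.26 ± 0.15, Slc7a15 at 0.15 ± 0.12 and Slc6a16 at -0.023 ± 0.056 were not called. Slc7a6os, which is no carrier, was not called at -0.28 ± 0.070.

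The 52 members not tested fell in every class of carriers. On no array were 20 of them well above background in either population, and 32 were so on 1 or more arrays but not on all. Their replicate ratios reached at most 0.41 in absolute size, and no test was made on them.

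Genes known to act with these carriers were called in both directions. Of 5 tested chaperones and scaffolds, 3 were higher, beside 21.7% of all genes. The scaffold gene Slc9a3r2 had values of 2.35, 2.99 and 3.004 and a mean of 2.67 ± 0.45 (SD, n = 2, adjusted p = 7.08e-04). Bsg, whose product basigin carries Slc16a1 to the membrane, had values of 1.37, -0.24, 1.43 and 0.68 and a mean of 0.81 ± 0.35 (SD, n = 2, adjusted p = 0.0103), with the opposite sign on the dye swap of replicate 1. Emb, which encodes embigin, the partner of Slc16a7, cleared background on no array for the RNA labelled CD24hi. In the main processing the RNA labelled Lgr5-GFP held at least 1.43-fold more of it, with a mean of 0.58 ± 0.015 (SD, n = 2, adjusted p = 0.0128). Among 4 sodium pump subunits, Atp1b1, a beta subunit, was lower at -0.77 ± 0.35 (SD, n = 2, adjusted p = 0.0122), and the other 3 were not called. That share of 25% was near the 25.6% of all genes called lower.

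Of 17 tested genes of the amino acid response and of amino acid sensing, 12 were higher with the Lgr5-GFP label and 1 was lower, beside 21.7% and 25.6% of all genes, and the median was 0.52, beside -0.069 over all genes. Chac1, a glutathione-degrading target of Atf4, had values of 2.58, 1.68 and 2.07 and a mean of 2.23 ± 0.50 (SD, n = 2, adjusted p = 0.001). In the RNA labelled CD24hi, Chac1 cleared background on 2 of 3 arrays and the arginine sensor gene Castor1, also higher, on 1 of 4, so both entered the test through their high side. Asns, the asparagine synthetase gene, had values of 1.997, 0.52, 1.52 and 1.64 and a mean of 1.42 ± 0.22 (SD, n = 2, adjusted p = 0.00132), and Flcn, a regulator of the Rag GTPases at the lysosome, had values of 1.78, 0.75, 1.40 and 1.27 and a mean of 1.299 ± 0.051 (SD, n = 2, adjusted p = 0.00121). Atf4 itself was higher at 0.65 ± 0.079 (SD, n = 2, adjusted p = 0.00933). Rraga, a Rag GTPase gene, was the lower one at -0.48 ± 0.16 (SD, n = 2, adjusted p = 0.0297), and Trib3, a further Atf4 target, was not called at 0.085 ± 0.20. The list was assembled with earlier results of these data known, and nothing about the carriers was tested against it.

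**Figure D4:**
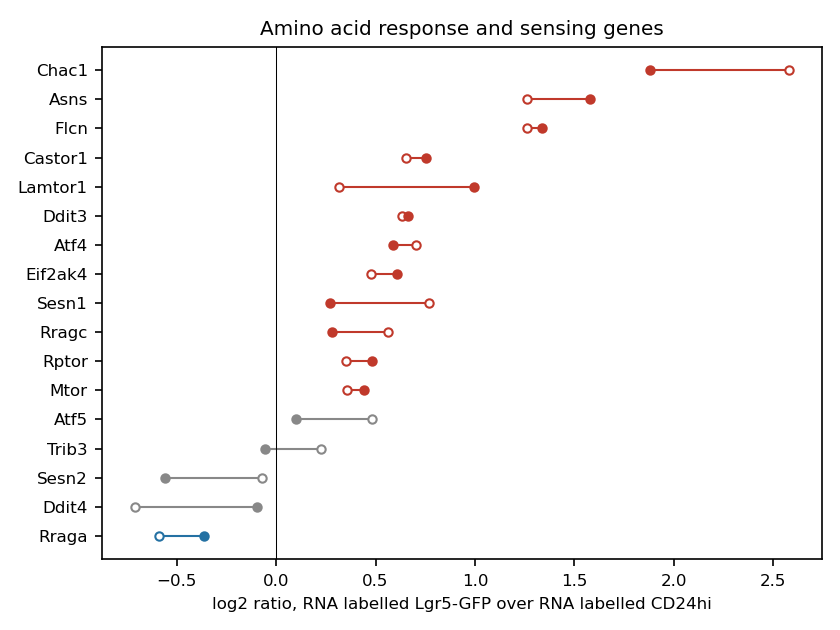
Log2 ratio (Lgr5-GFP label over CD24hi label) of the 17 tested genes of the amino acid response and of amino acid sensing, with open points for replicate 1 and filled points for replicate 2. Red genes were called higher, blue lower and grey not called; Chac1 is at the top with a mean of 2.23 and Rraga at the bottom with -0.48.

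Of 7 regulators of glucose carriers, 4 were higher and 2 lower, beside 21.7% and 25.6% of all genes. Sgk1, a kinase that raises several carriers at the membrane, had values of -1.69, -1.86 and -1.94 and a mean of -1.79 ± 0.15 (SD, n = 2, adjusted p = 7.47e-04). Txnip, which lowers glucose uptake, was the other lower gene at -0.54 ± 0.33 (SD, n = 2, adjusted p = 0.0368). Hif1a, the oxygen-responsive factor, was higher at 0.87 ± 0.32 (SD, n = 2, adjusted p = 0.0071), and Tbc1d4, which holds back Slc2a4 vesicles, was higher at 0.64 ± 0.037 (SD, n = 2, adjusted p = 0.00926). The other higher genes were Arrdc4 at 0.62 ± 0.0060 (SD, n = 2, adjusted p = 0.0102) and Nedd4l at 0.52 ± 0.19 (SD, n = 2, adjusted p = 0.0246). Rsc1a1 was not called at -0.011 ± 0.018.

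The calls rested on the processing to different degrees. Under 15 alternatives with a test, 10 of the 46 called members kept their call wherever they had a value: Slc2a10, Slc16a7, Slc7a4, Slc22a23, Slc6a9, Slc1a4 and Slc38a10 on the higher side and Slc27a2, Slc5a8 and Slc16a12 on the lower side. With normexp fitted on all spots, 32 members lost their call, and for 11 members this was the only alternative that ended it. Of the 17 called members that still had a value without the first array of replicate 1, 10 lost their call. Among the 32 members not called, 17 were called under 1 or more alternatives.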

How the data were processed

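Per the file headers, spots were read with Feature Extraction 10.5.1.1 and positions are mm9. The deposited intensity values were spot means and local background medians. The deposited log10 ratio was red over green after the software's own dye normalization. The authors' deposited series table gives red over green per array as a log2 ratio, its normalization not given in the sources used here.

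Spots of non-uniform background were left out, background was corrected by normexp (offset 50), and global loess was run per array, with weight 0 for control and marked spots (limma 3.58.1, R 4.3.3). Marked or non-uniform spots, 100, 32648, 222 and 163 of 43379, were left out. No spot was saturated. An array and its swap gave 1 mean ratio, or the array with a value stood alone where the other had none. The dye swap of replicate 1 lacked a value for 9137 of the genes tested, so dyes were not balanced in that replicate for them. Both replicate ratios were tested against 0 in limma (2-sided, 1 residual and 4.53 prior degrees of freedom), an approach tested on simulated data. A probe had to be well above background in 1 or both populations on each array with a value, and the brightest kept probe stood for a gene. RefSeq names served 27041 gene spots. The number of arrays limits the precision.

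The members, lists, motifs and most processing choices were chosen with earlier results of these data known. Named were up to 4 called members per class by size with 1 sign on all arrays, and all of classes of up to 5. Also named were up to 2 bright members not called, and up to 3 called genes per partner group. Others were named to account for the tested members or for further genes of the partner lists. The values of 2 members are not reported here.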

Additional observations from a re-analysis of the deposited data

How the results depend on the processing

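The count of called members was 26 higher and 20 lower. It was 10 and 4 with normexp fitted on all spots (1510 of all genes called, 5811 at an unadjusted p under 0.05, beside 6987), and 16 and 12 with marked spots kept (3828 of all genes). Leaving out single arrays gave 7 to 30 higher, 0 to 22 lower and 944 to 8541 of all genes, the lowest counts when the first array of replicate 1 was dropped, leaving 27 members and 5650 genes. Median centring alone gave 23 and 26 (2221 and 5434 of all genes, with an all-gene median of -0.25), and processed signals gave 24 and 26. The replicate block over 4 arrays gave 28 and 22, and first arrays only, chosen after seeing the data, gave 27 and 23. One call turned sign: Slc22a20 at 0.079 with no filter on dim probes.

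The median over all members (0.0039) was -0.11 with processed signals, -0.16 with median centring, 0.14 with signal in both populations, 0.072 with first arrays only. That of neutral amino acid carriers (0.21) was 0.30 with processed signals, 0.38 with the series table, 0.085 with no filter, 0.39 with first arrays only. For neurotransmitters and osmolytes (0.15) it was -0.0082, 0.011, 0.029, 0.040, 0.47 and 0.26 with processed signals, the series table, median centring, no filter, signal in both populations and first arrays only. For sugars and polyols (0.27) it was 0.22 with no background subtraction, 0.23 with normexp on all spots, 0.20 with processed signals, 0.36 with the series table, 0.077 with median centring, 0.24 with marked spots kept, -0.0021 with no filter, 0.60 with signal in both populations, 0.29 with the replicate block and 0.23 with first arrays only. For monocarboxylates (0.28) it was 0.56, 0.68, 0.11, 0.093 and -0.24 with processed signals, the series table, median centring, no filter and signal in both populations. Leaving out single arrays or a replicate gave medians of -0.0038 to 0.35 over all members, 0.025 to 0.33, 0.022 to 0.57, 0.23 to 0.73 and 0.22 to 0.49 for those classes in the same order. Dim probes limit these values: processed signals, which fit no normexp, gave ratios further from 0 for members near background, such as Slc38a5 and Slc16a12.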
